A study of Mus musculus with 4 samples.

Results

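Nkx2-3, Tcf21, Isl1, Wt1, Bnc1, Gata4, Gata6, Barx1, Foxf2 and Hlx encode transcription factors of the mesoderm that forms the wall of the gut, the spleen and the lining of the body cavity. The 10 genes, of 27586 named on the array, were taken by name, and 13 probes carry those names, with Hlx listed under its older symbol Hlx1. They were selected from earlier results on these same 4 arrays, with the difference between mesenteric and peripheral lymph node already known, so that difference is described here and not tested. The tissue was the CD45-negative fraction of the mesenteric lymph node (mLN), which drains the intestine, and of the peripheral lymph node (pLN). CD45 is the surface protein that leukocytes share, and the fraction without it holds stromal and endothelial cells. All mice were wild-type C57BL/6NCrl, with no transgene and no treatment in the labels, and their age is not given. Nodes were digested with collagenase 8 at 1 mg/ml for 30 min at 37 degrees, and CD45-negative cells were separated with magnetic beads to a stated purity (mean ± SD) of 97.4% ± 2.0 in mLN and 97.5% ± 2.2 in pLN. Each node was sampled in 2 numbered experiments, which gave 2 mLN and 2 pLN samples on 1-colour Agilent arrays. Which peripheral nodes were taken, how many animals made up a sample and whether the experiments used separate animals are not stated. A p-value here covers only the spread among these 4 samples, and that spread may be technical.

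Visceral mesoderm is the sheet of embryonic mesoderm that faces the gut tube, and it gives rise to gut mesenchyme, gut muscle and the mesenchyme of the spleen. The lining of the coelom, the embryonic body cavity, becomes the mesothelium that covers the abdominal organs and the mesentery. In mouse embryos hedgehog signals from the gut epithelium act on the underlying mesenchyme, and homeobox, forkhead, GATA and basic helix-loop-helix factors set the identity of its regions along the gut.

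Array probes set what each value measures. The first 30 of 60 bases of the probes for the 6 factors whose mLN signal was 2-fold or more above pLN in each experiment are shown, 5′ to 3′, in lower case with nothing marked. They are copied from the deposited array files, whose coordinates are on mm8. The Nkx2-3 probe lies at chr19:43668520-43668578 on the plus strand, that of Tcf21 at chr10:22507173-22507232 on the minus strand and that of Isl1 at chr13:117419248-117419307 on the minus strand. The Wt1 probe lies at chr2:104974110-104974169 on the plus strand, that of Bnc1 at chr7:81840605-81840664 on the minus strand and that of Foxf2 at chr13:31638735-31638794 on the plus strand. Exon and UTR annotation of that build was not used here.
Nkx2-3 probe: ggcatggaactcagcggaggaaaggatgcc
Foxf2 probe: ttttatgatcttcgtatactcacacttcgc
Tcf21 probe: ttatggtggccggcaaaccagagaatgacc
Isl1 probe: cccccaaagatgtgtatagttattggttaa
Wt1 probe: cactggtaagactgttcttaagtaacttaa
Bnc1 probe: tgcagctttaaaagaagtggattttgtatt

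Promoter windows from RefSeq on GRCm38.p6, 250 bases before to 50 after the annotated start, matched 7 of the 10 factors. Those of Nkx2-3, Tcf21, Isl1 and Bnc1 are printed because these 4 genes had the high mLN signals described below. They lie at chr19:43612075-43612374 (plus strand), chr10:22820094-22820393 (minus), chr13:116309639-116309938 (minus) and chr7:81992250-81992549 (minus). Each is written 5′ to 3′ along the gene, with capitals where 1 of 6 short motifs matched on either strand. A GATA-type motif was searched as GATAAG, a forkhead-type motif as TAAACA and an E-box as CAGCTG. An NKX2-type motif was searched as TNAAGTG, a GC box as GGGCGG and a TATA box as TATAAA.
Nkx2-3 promoter: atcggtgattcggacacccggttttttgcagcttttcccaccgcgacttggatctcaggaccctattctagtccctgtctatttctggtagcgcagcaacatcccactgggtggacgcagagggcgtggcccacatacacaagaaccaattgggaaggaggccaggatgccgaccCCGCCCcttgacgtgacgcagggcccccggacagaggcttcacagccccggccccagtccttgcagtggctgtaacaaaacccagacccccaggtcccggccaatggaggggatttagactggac
Tcf21 promoter: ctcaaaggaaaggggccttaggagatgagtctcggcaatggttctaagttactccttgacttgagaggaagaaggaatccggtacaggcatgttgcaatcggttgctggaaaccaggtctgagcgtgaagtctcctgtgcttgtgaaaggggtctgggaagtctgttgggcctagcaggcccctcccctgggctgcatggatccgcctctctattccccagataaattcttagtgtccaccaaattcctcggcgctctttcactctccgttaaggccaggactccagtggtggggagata
Isl1 promoter: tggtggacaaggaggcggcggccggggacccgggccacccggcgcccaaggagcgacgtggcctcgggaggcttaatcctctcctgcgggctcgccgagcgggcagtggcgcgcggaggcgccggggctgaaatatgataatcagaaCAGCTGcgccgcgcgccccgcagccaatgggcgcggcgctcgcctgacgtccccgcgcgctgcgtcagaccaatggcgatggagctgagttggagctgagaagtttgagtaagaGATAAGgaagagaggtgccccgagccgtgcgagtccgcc
Bnc1 promoter: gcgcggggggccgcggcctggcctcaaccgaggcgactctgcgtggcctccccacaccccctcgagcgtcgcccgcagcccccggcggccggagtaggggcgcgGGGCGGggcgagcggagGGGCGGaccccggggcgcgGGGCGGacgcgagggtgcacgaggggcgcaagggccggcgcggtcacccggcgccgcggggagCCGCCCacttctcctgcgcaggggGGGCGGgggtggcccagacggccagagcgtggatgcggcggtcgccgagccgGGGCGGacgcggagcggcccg

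The 4 windows were unlike in composition. GC content was 60.0% for Nkx2-3, 53.3% for Tcf21, 69.0% for Isl1 and 83.3% for Bnc1, against a median of 52.7% over 32851 promoters. They held 15, 8, 37 and 50 CpG dinucleotides in the same order, with a median of 7 over all promoters. The Bnc1 window had 6 GC boxes and that of Nkx2-3 had 1, a motif present in 35.7% of all promoters. The Isl1 window held 1 GATA-type motif, at position 12 after the start, and 1 E-box, at position -103, which are found in 7.44% and 16.3% of all promoters. None of the 6 motifs occurred in the Tcf21 window. The GC box was also found in the Foxf2 and Barx1 windows, the E-box in that of Foxf2, and none of the motifs in that of Hlx. The forkhead-type, NKX2-type and TATA motifs, in 13.4%, 11.5% and 13.6% of all promoters, matched in none of the 7 windows. The matched motifs printed above did not overlap each other, and a match describes letters, not a bound site.

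Nkx2-3 is the NK2-type homeobox factor that mice need to form a normal spleen and to place the addressin MAdCAM-1 on vessels of gut and spleen. Its probe read an intensity of 4570 on mLN 1 and 4535 on mLN 2, against 89.2 on pLN 1 and 54.9 on pLN 2. All 4 values were well above background, and both mLN values were far above both pLN values. On log2 values scaled to each array's 75th percentile, the mean difference was 6.00 ± 0.26 (SE, n = 2 per node), a 64.1-fold higher signal in mLN. In bulk samples such as these, fewer cells of a type and less RNA per cell cannot be told apart.

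Foxf2 is a forkhead factor of gut mesenchyme that responds to hedgehog signals in mouse. Its intensity was 229 on mLN 1 and 388 on mLN 2, against 49.4 on pLN 1 and 73.8 on pLN 2. The groups did not overlap, but the gap was far narrower than for Nkx2-3, with a log2 difference of 2.28 ± 0.36 (SE, n = 2 per node), or 4.86-fold. In both nodes the second experiment read higher than the first, by 0.77 in mLN and 0.62 in pLN on the log2 scale.

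Hlx, a homeobox factor that mouse gut and liver need to grow, did not separate the nodes. Its intensity was 783 and 839 in mLN, against 641 and 840 in pLN. The mLN values lay inside the pLN range, and the log2 difference was 0.12 ± 0.20 (SE, n = 2 per node). Barx1 is the homeobox factor of embryonic stomach mesenchyme. Its probe read 2.98 and 4.90 in mLN, against 3.28 and 3.79 in pLN, and was not well above background on any of the 4 arrays. No fold is given for it.

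Tcf21, also called capsulin or Pod1, is a basic helix-loop-helix factor of the mesenchyme around spleen, kidney, lung and epicardium. Its intensity was 4322 on mLN 1 and 2145 on mLN 2, against 44.8 on pLN 1 and 21.2 on pLN 2. Every array was well above background and the nodes did not overlap, with a log2 difference of 6.60 ± 0.51 (SE, n = 2 per node), or 97.2-fold. The spread between experiments was alike in the 2 nodes. Experiment 2 read lower than experiment 1 by 1.00 in mLN and by 1.04 in pLN on the log2 scale, so the ratio within each experiment was almost the same.

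Isl1 is a LIM homeobox factor known from the heart field, motor and sympathetic neurons, pancreatic islets and the mesenchyme of the stomach and pancreas. Its 10 spots per array averaged 566 on mLN 1 and 519 on mLN 2, against 9.22 on pLN 1 and 6.63 on pLN 2. Neither pLN value was well above background. The difference is therefore a bound, taken by raising each pLN value to the lowest signal that was well above background on that array. By this bound Isl1 was at least 35.9-fold higher in mLN. That level is not a strict limit, since some probes that were not well above background read higher. On pLN 1 it was -6.97 on the scaled log2 values, and a probe of another gene at -6.53 was not well above background. Folds given as at least, here and below, are nominal in that sense.

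Gata4 and Gata6 are zinc finger factors of heart, gut endoderm and the mesoderm next to it, and Gata4 is also known from the liver mesenchyme and the gonad. The Gata4 probe with the higher mean read 130 and 148 in mLN, against 149 and 119 in pLN. A second Gata4 probe, spotted 10 times on each array, read 56.0 and 43.9 in mLN, against 63.2 and 34.5 in pLN. With both probes the nodes overlapped, and the log2 differences were 0.04 ± 0.18 and 0.07 ± 0.34 (SE, n = 2 per node). The 2 Gata4 probes lie at chr14:62153025-62153046 and chr14:62153420-62153479 on mm8. Gata6 had 3 probes, all well above background on every array. Its brightest probe read 17656 and 19550 in mLN, against 15746 and 15681 in pLN. Both mLN values lay above both pLN values, by a log2 difference of 0.22 ± 0.14 (SE, n = 2 per node), or 1.16-fold. The other two Gata6 probes differed by 0.28 ± 0.17 and -0.01 ± 0.19, so the 3 probes did not share a direction.

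Wt1 and Bnc1 belong to the coelomic lining. Wt1 is the zinc finger factor of mesothelium, epicardium and kidney podocytes, and mice without it lack kidneys, gonads and a spleen. Its repeated spots averaged 1192 on mLN 1 and 1014 on mLN 2, against 6.63 on pLN 1 and 3.71 on pLN 2, the last over the 8 spots kept there. Neither pLN array was well above background for this probe, and Wt1 was at least 72.8-fold higher in mLN by the same bound.

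Bnc1 encodes basonuclin 1, a zinc finger protein known from keratinocytes, germ cells and mesothelium. Its intensity was 1025 on mLN 1 and 869 on mLN 2, against 3.32 on pLN 1 and 3.76 on pLN 2. Its pLN signal, too, was at background on the 2 arrays, and the bound was at least 62.5-fold higher in mLN. The fitted log2 differences without a bound were 8.04 ± 0.17 for Bnc1, 7.77 ± 0.31 for Wt1 and 6.09 ± 0.20 for Isl1 (SE, n = 2 per node). They rest on pLN signals at the level of background.

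**Figure D1:**
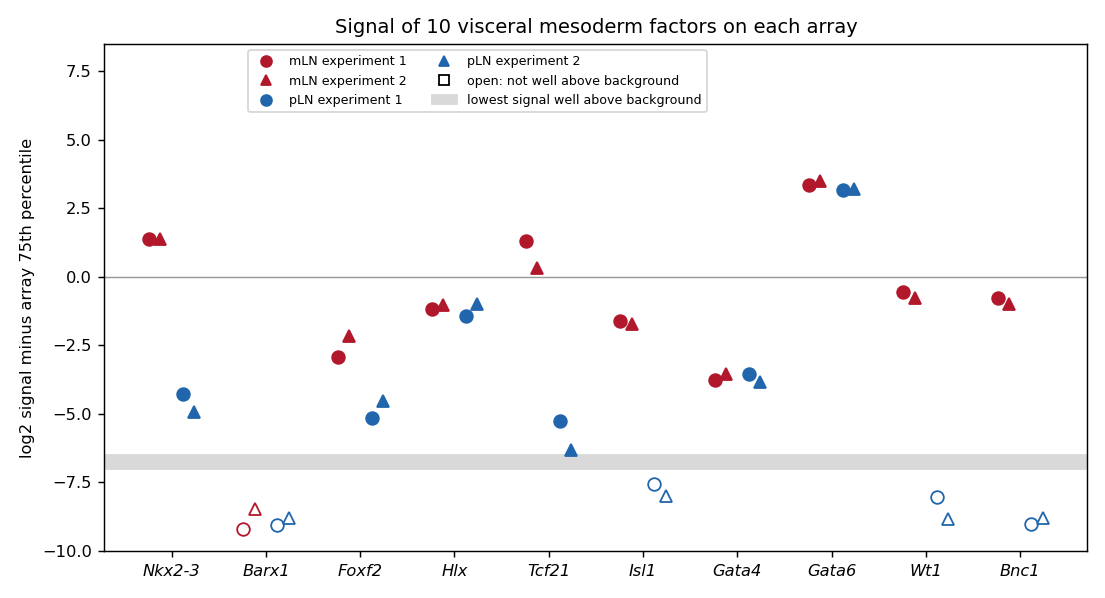
Log2 signal of each factor's probe minus the 75th percentile of its array, with mLN in red left of pLN in blue, circles for experiment 1 and triangles for experiment 2. Nkx2-3, Tcf21, Isl1, Wt1 and Bnc1 sit far higher in mLN, Foxf2 is higher by 2.28, Hlx, Gata4 and Gata6 lie close together in the 2 nodes, and Barx1 has open symbols on all arrays. Heights of different genes come from different probes and are not comparable.

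Across the group, 9 of the 10 factors met the condition for entering the fit over all genes, a probe well above background on the 2 arrays of one node or the other, and Barx1 did not. A factor could enter through its mLN signal alone, as Isl1, Wt1 and Bnc1 did. In the limma fit over 21392 genes, with p-values adjusted by Benjamini-Hochberg over all of them and a threshold of 0.05, Nkx2-3, Tcf21, Isl1, Wt1 and Bnc1 were called higher in mLN, which is 5 of 9, and 0 were called lower. Over all genes 0.771% were called higher and 0.276% lower, 1.05% in either direction. A signal 2-fold or more higher in mLN in each experiment was found for 6 of 9 factors, against 2.75% of all genes, and one 2-fold or more lower for 0 of 9, against 1.71%. In 7 of 9 both mLN arrays lay above both pLN arrays, which held for 20.6% of all genes, and in 0 of 9 they lay below, against 25.0%. Since the factors were picked with this contrast known, nothing is read from these shares.

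The calls depended on both pLN arrays. With either pLN 1 or pLN 2 left out, none of the 9 factors and no gene of the array was called, although 6 of 9 factors kept an unadjusted p under 0.05 in limma in both cases. With normexp background correction and an offset of 50, no factor and no gene of the array was called either, and 5 factors had an unadjusted p under 0.05 in limma. Tcf21 alone among the 5 lost its call with mLN 1 left out. The labels number the experiments, and with the experiment as a block Foxf2 was called too, giving 6 of 9, against 1.16% of all genes called higher in that fit.

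Within each experiment the ratio of mLN to pLN rests on 1 array per node and is given as a value. Nkx2-3 was 51.0-fold higher in mLN in experiment 1 and 80.5-fold higher in experiment 2. Tcf21 was 96.0-fold and 98.4-fold higher. Foxf2 was 4.61-fold and 5.12-fold higher. These 3 factors were measured above background on all 4 arrays, so their ratios are not bounds. For the 3 factors with pLN signal at background, the log2 ratios were 5.93 and 6.25 for Isl1, 7.48 and 8.06 for Wt1, and 8.26 and 7.82 for Bnc1. The remaining factors had small ratios. Gata6 gave 0.16 and 0.28, Gata4 gave -0.20 and 0.28, and Hlx gave 0.28 and -0.04, so that Gata4 and Hlx changed sign between the experiments.

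**Figure D2:**
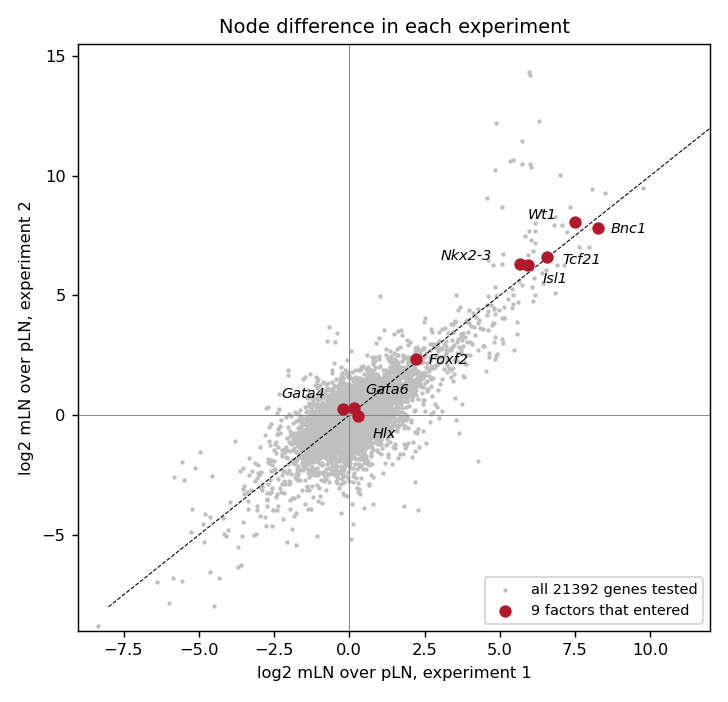
Log2 ratio of mLN over pLN in experiment 1 (horizontal) and experiment 2 (vertical) for the 21392 genes tested in grey and the 9 factors that entered in red, with the dashed line marking equal ratios. Bnc1, Wt1, Tcf21, Isl1 and Nkx2-3 lie near the line at high ratios in both experiments, Foxf2 lies at 2.20 and 2.36, and Gata4, Gata6 and Hlx lie near 0.

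Repeated spots give the measuring error within an array for Wt1, Isl1 and 1 Gata4 probe. The 10 Wt1 spots had a coefficient of variation of 3.02% on mLN 1 and 3.44% on mLN 2, against 31.3% on pLN 1 and 9.98% over the 8 spots kept on pLN 2. The Wt1 spots ranged from 1127 to 1227 on mLN 1, and from 3.20 to 9.76 on pLN 1. For Isl1 the coefficient was 1.60% on mLN 1 and 3.03% on mLN 2, against 71.6% on pLN 1 and 61.3% on pLN 2. The highest single Isl1 spot in pLN read 21.2, and the lowest in mLN read 484. Spots of the Gata4 probe varied by 6.74% and 7.63% in mLN, against 7.71% and 13.4% in pLN. For Wt1 and Isl1 every mLN spot therefore lay above every pLN spot. Spots of 1 array share its hybridisation and are not replicates of a node.

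**Figure D3:**
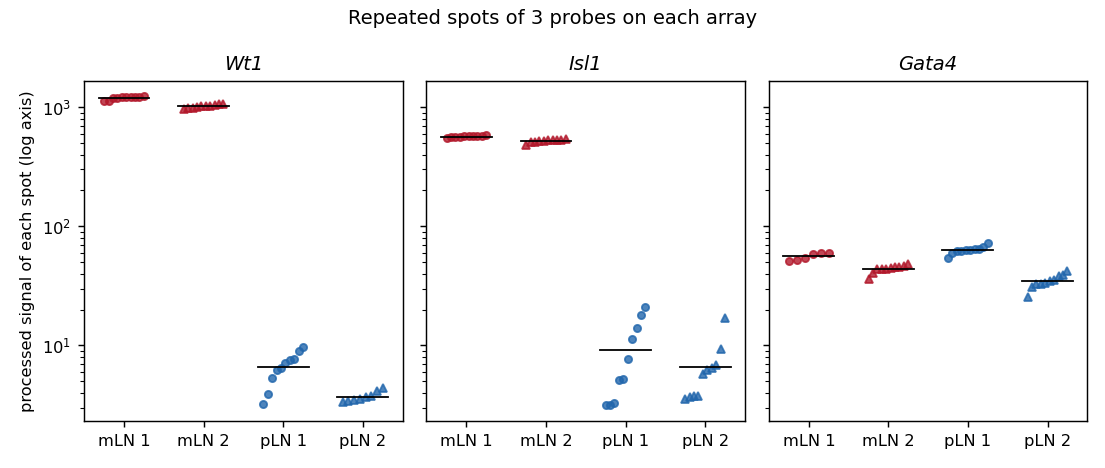
Processed signal of each spot on a log axis for the Wt1, Isl1 and Gata4 probes that are spotted 10 times, with mLN arrays in red left of pLN arrays in blue and a bar at the mean of each array. Wt1 and Isl1 spots are tightly packed at high signal on both mLN arrays and scattered at low signal on both pLN arrays, and the Gata4 spots of the 2 nodes overlap, from 36.4 to 59.6 in mLN, against 25.6 to 73.0 in pLN.

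Other genes were ranked by how closely their log2 profile over the 4 arrays followed that of a factor, after each profile was centred on its own mean. The measure was the root mean square difference, over 16103 named genes that were well above background on every array, so Isl1, Wt1 and Bnc1 could not be ranked. For Nkx2-3 the closest were Cybrd1 (0.158), a ferric reductase, Cyp2s1 (0.292), a cytochrome P450, and Aldh1a2 (0.324), which makes retinoic acid. For Tcf21 they were Aldh1a2 (0.326), Myl7 (0.381), the atrial myosin light chain, and Dmkn (0.395), which encodes the secreted protein dermokine. Foxf2 was closest to Efnb3 (0.0823), an ephrin, Aox3 (0.122), an aldehyde oxidase, and Krt20 (0.166), a keratin. Profiles with little difference between nodes have many near neighbours. For Gata4, Gata6 and Hlx the smallest distances were 0.0163 (Serpinb9e), 0.00985 (Zfp738) and 0.0123 (Ust). All profiles share the same 4 arrays, and the difference between nodes is part of each distance.

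Other transcription factors of gut, stomach and spleen mesenchyme were taken from a list that was drawn up with earlier results of these data known. Of 12 genes, 11 were named on the array and 10 were tested. In the limma fit 2 were called higher in mLN, Gata5 and Meis1, and 0 lower, against 0.771% higher and 0.276% lower over all genes. The median log2 difference was 0.44 beside -0.03 over all genes. Gata5, the close relative of Gata4 and Gata6, read 107 and 110 in mLN, against 4.38 and 3.37 in pLN. Those pLN values were not well above background, and Gata5 was at least 7.18-fold higher in mLN, with an adjusted p of 0.00761 in limma. The log2 differences of Gata4 and Gata6 were 0.04 and 0.22, and the contrast between the 3 genes was not tested. Meis1, a homeobox cofactor of Hox proteins, read 1230 and 1445 in mLN, against 315 and 303 in pLN. Its log2 difference was 2.09 ± 0.16 (SE), with an adjusted p of 0.0198 in limma, and its second probe gave 2.14. The rest of the list did not pass the test. Foxf1, the paralogue of Foxf2, read 618 and 1263 in mLN, against 535 and 669 in pLN, a log2 difference of 0.54 ± 0.40. Nkx3-2, a homeobox factor of the spleen and stomach mesenchyme, was not well above background in pLN. Its bound was at least 2.68-fold higher in mLN, with an adjusted p of 0.118 in limma. Meis1 lost its call with mLN 2 left out or without the filter on dim probes. Both genes lost it with normexp background correction and with either pLN array left out, settings in which no gene of the array was called.

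Of 13 other factors of coelomic epithelium, epicardium, heart field and gonadal ridge, 11 were tested, with a median log2 difference of 0.00. Hand1 alone was called higher in mLN, 1 of 11, and 0 were called lower, against 0.771% higher and 0.276% lower over all genes. Hand1, a basic helix-loop-helix factor of lateral mesoderm and heart, read 78.7 and 55.8 in mLN, against 5.02 and 3.73 in pLN, where it was not well above background. It was at least 4.38-fold higher in mLN, with an adjusted p of 0.016 in limma. Its relative Hand2 read 193 and 154 in mLN, against 95.7 and 4.72 in pLN (adjusted p of 0.468 in limma), and its second probe gave a log2 difference of 1.53 ± 0.24. Some other factors of this list had negative values that missed the threshold. Tbx18, which marks epicardium along with Wt1 and Tcf21, read 235 and 76.9 in mLN, against 653 and 988 in pLN, a log2 difference of -2.60 ± 0.60 (adjusted p of 0.168 in limma). Tbx5 gave -1.79 ± 0.27 and an adjusted p of 0.0902 in limma. Emx2, a homeobox factor of the gonadal ridge, gave -1.47 ± 0.19 and an adjusted p of 0.0692 in limma. A second Emx2 probe, not well above background in mLN, was at least 9.79-fold lower in mLN. With the mean of the 2 probes the difference was -3.41 and with the deposited value table -3.17, and Emx2 was called lower in mLN in both, as it was with median scaling and with quantile normalization. With normexp background correction the sign of Emx2 was reversed, at 1.12 ± 1.27, and it was not called. Zfpm2, the cofactor of GATA4 known as FOG2, gave 0.02 ± 0.16, and 1.34 ± 0.17 in another probe. Of the 11 tested, 6 had a positive and 5 a negative difference. Hand1 and Hand2 were positive, as were Wt1 and Tcf21, which were picked with this contrast known. Tbx18, Tbx5 and Emx2 were of lower measured signal in mLN and missed the threshold. The other tested genes of the list lay between -0.22 and 0.50. Hand1 lost its call without the filter on dim probes. It also lost it with normexp background correction and with either pLN array left out, where no gene of the array was called.

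**Figure D4:**
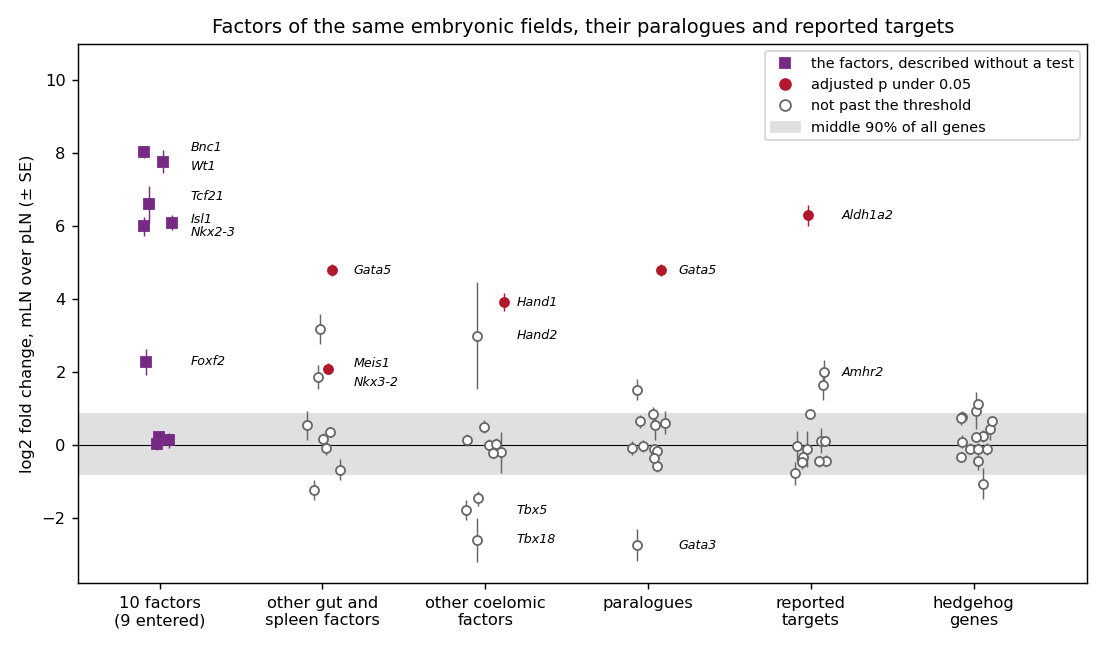
Log2 difference between mLN and pLN (± SE, n = 2 arrays per node) for the 9 factors that entered, as squares, and for tested genes of 5 other lists, as circles that are filled where the adjusted p is under 0.05. Gata5, Meis1, Hand1 and Aldh1a2 are the filled circles, Gata5 being drawn in 2 lists, and the hedgehog genes lie between -1.06 and 1.11.

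Paralogues of the 10 factors were set beside them. Of 18, 17 were named on the array and 13 were tested, Nkx2-1, Nkx2-2, Nkx2-9 and Isl2 being too dim to enter. In limma 1 was called, Gata5, which stands in both lists, against 1.05% of all genes called in either direction. The median log2 difference was -0.03. Nkx2-5, which acts in heart and spleen, read 69.0 and 88.5 in mLN, against 86.9 and 76.0 in pLN, where Nkx2-3 differed by 6.00 on the log2 scale. Bnc2, the relative of Bnc1, read 373 and 460 in mLN, against 269 and 252 in pLN, a log2 difference of 0.65 ± 0.17 (adjusted p of 0.206 in limma). For the relatives of Tcf21 the log2 differences were 0.61 ± 0.32 for Tcf15, 1.51 ± 0.29 for Tcf23 and 0.85 ± 0.18 for Msc, none past the threshold. Gata3, a GATA factor of T cells and several epithelia, read 80.5 and 95.02 in mLN, against 389 and 858 in pLN, a log2 difference of -2.75 ± 0.43 (adjusted p of 0.0985 in limma). Gata2 gave -0.58 ± 0.16 and Gata1 -0.17 ± 0.16. The GATA family therefore held 1 called gene, Gata5, beside Gata4 and Gata6 with small differences and Gata3 with a large negative value that was not called.

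Genes reported in mouse to depend on one of the factors were mostly not called. Of 13 tested in limma, 1 was called higher in mLN, Aldh1a2, and 0 lower, against 0.771% higher and 0.276% lower over all genes. The median log2 difference was -0.03. Aldh1a2, reported as a target of Wt1 in the epicardium, read 12084 and 7310 in mLN, against 131 and 105 in pLN. Its log2 difference was 6.30 ± 0.29 (SE), with an adjusted p of 0.0108 in limma. The call was lost with normexp background correction and with either pLN array left out, settings in which no gene of the array was called. Madcam1, the addressin that is reduced in mice without Nkx2-3, read 14707 and 29088 in mLN, against 8102 and 5307 in pLN. The nodes did not overlap, and the log2 difference of 1.64 ± 0.41 had an adjusted p of 0.191 in limma. Amhr2, a receptor reported to depend on Wt1, read 135 and 71.5 in mLN, against 24.8 and 23.8 in pLN, a log2 difference of 2.00 ± 0.34 (adjusted p of 0.108 in limma). Podxl, reported to depend on Wt1 in podocytes, gave -0.78 ± 0.32. Hedgehog ligands, receptors and effectors, which act upstream of Foxf2 in gut mesenchyme, gave 0 calls among 15 tested in limma, with 4 at an unadjusted p under 0.05, a level reached by 14.7% of all genes, and a median log2 difference of 0.22. Gas1, a hedgehog coreceptor, read 24993 and 24797 in mLN, against 10871 and 11817 in pLN, a log2 difference of 1.11 ± 0.14 (adjusted p of 0.0666 in limma). The pathway's own target genes Gli1 and Ptch1 gave 0.22 ± 0.13 and 0.09 ± 0.17.

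Markers of cell types that are known to carry these factors were read in the same samples. Of 17 mesothelial markers 8 were called higher in mLN in limma and 0 lower, against 0.771% higher and 0.276% lower over all genes. The median log2 difference was 1.84 beside -0.03 over all genes. Among the 17, 11 had a positive and 6 a negative difference. Their summed intensity was 242810 and 168918 in mLN, against 102616 and 90886 in pLN. Bright probes weigh most in these sums. Efemp1 read 78762 on mLN 1 and 18768 on pLN 1, and Gpm6a 40702 and 37742. Neither was called, and the log2 difference of Gpm6a was -0.01 ± 0.16. Msln, which encodes mesothelin, read 18612 and 11461 in mLN, against 51.9 and 18.1 in pLN. Upk3b, a uroplakin of mesothelium, read 16150 and 14313 in mLN, against 18.4 and 19.7 in pLN. Cdh3, which encodes P-cadherin, read 570 and 597 in mLN, against 81.1 and 81.1 in pLN. These were the markers with the smallest adjusted p in limma, together with Muc16, a membrane mucin of mesothelium that read 960 and 580 in mLN, against 27.0 and 33.6 in pLN, while a second Muc16 probe gave a log2 difference of 0.26. In 10 of the 17 both mLN arrays lay above both pLN arrays, against 20.6% of all genes, and in 3 they lay below, against 25.0%. The most negative marker was Clic5, a chloride channel protein, with a log2 difference of -1.08 ± 0.20. Without the filter on dim probes 2 markers were called, without mLN 1 there were 3 and without mLN 2 there were 5. With normexp 0 were called in limma, as over all genes, with 8 at an unadjusted p under 0.05. With either pLN array left out no gene of the array was called. The part of mesothelial RNA in the difference of the factors was not tested.

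All 14 pancreatic acinar markers tested were 2-fold or more higher in mLN in each experiment, against 2.75% of all genes. In limma 1 of them was called higher, against 0.771% of all genes. Their summed intensity was 2470640 and 901067 in mLN, against 50843 and 2928 in pLN. With the experiment as a block 7 of the 14 were called higher in mLN, against 1.16% of all genes called higher in that fit. Amy2a5, a pancreatic amylase and the gene called without the block, read 1513 and 426 in mLN, against 6.06 and 3.24 in pLN, where it was at background, and was at least 53.1-fold higher in mLN. With median scaling or without mLN 2 there were 3 calls. With normexp or without the filter on dim probes 0 were called in limma, with 13 at an unadjusted p under 0.05 in each. No gene of the array was called with normexp or with either pLN array left out. Islet cells are a known site of Isl1, and their markers gave 0 calls among 9 tested in limma, with 1 at an unadjusted p under 0.05. Their summed intensity was 1235 and 1111 in mLN, against 1467 and 1313 in pLN, and Ins1, Pcsk1, Chgb, Neurod1, Pdx1 and G6pc2 were too dim to enter. Of 10 neuronal markers tested, 1 was called in limma, Prph, higher in mLN, against 0.771% of all genes called higher. The median log2 difference of this list was 0.03, and 3 other markers, Th and Snap25 among them, were too dim to enter. Of 12 cardiac markers tested, 1 was called in limma, Myl7, higher in mLN, beside the same 0.771% of all genes, with a median of 0.33. At an unadjusted p under 0.05 in limma the neuronal list held 4 of 10 genes and the cardiac list 8 of 12, against 14.7% of all genes. In 7 of the 12 cardiac markers both mLN arrays lay above both pLN arrays, and in 3 they lay below. Over all genes these shares were 20.6% and 25.0%. The lists of gut epithelium, smooth muscle, reticular stroma, blood endothelium and leukocytes held 0 calls among 10, 11, 13, 13 and 14 tested genes in limma. At an unadjusted p under 0.05 they held 5, 3, 1, 5 and 2 genes, a level reached by 14.7% of all genes. Lists without a call are not thereby equal in the 2 nodes. Of the 13 blood endothelial markers 11 had a negative difference, with a median of -0.46 beside -0.03 over all genes. In 7 of them both mLN arrays lay below both pLN arrays, against 25.0% of all genes. Of the 11 smooth muscle markers 9 had a positive difference, with a median of 0.37. In 6 of them both mLN arrays lay above both pLN arrays, against 20.6% of all genes, and in 1 they lay below, against 25.0%. With the experiment as a block Krt20 of the gut epithelium list and Tnfsf11 of the reticular stroma list were called, both higher in mLN. That fit called 1.16% of all genes higher. The lymphatic endothelium list held 1 call among 9 in limma, against 0.771% of all genes called higher. It was Marco, higher in mLN by 3.28 on the log2 scale. The list itself had a median of -0.31, with 4 positive and 5 negative differences. At an unadjusted p under 0.05 in limma it held 5 of 9 genes, against 14.7% of all genes. The part of acinar, neuronal or cardiac RNA in the signal of the factors was not tested.

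**Figure D5:**
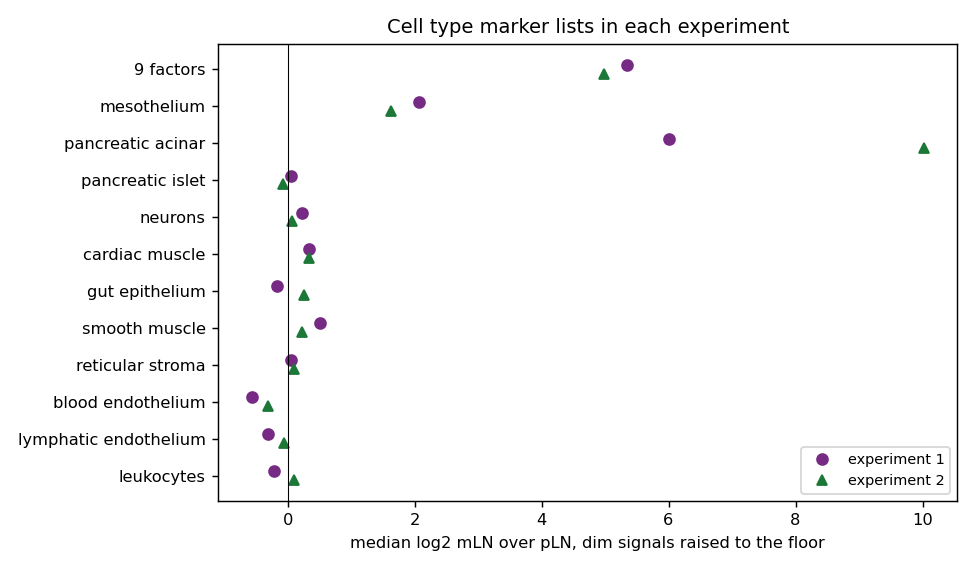
Median log2 ratio of mLN over pLN in experiment 1 (circles) and experiment 2 (triangles) for the 9 factors and 11 marker lists, with signals not well above background raised to the lowest signal that was so on their array. The factors lie at 5.35 and 4.98, mesothelial markers at 2.06 and 1.62, acinar markers at 6.01 and 10.02, and the other 9 lists between -0.56 and 0.51.

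Signal was alike in scale on the 4 arrays. The 75th percentile of the processed intensity was 1741 and 1730 in mLN, against 1734 and 1686 in pLN, and the share of 41174 probes well above background ran from 74.0% to 81.1%. Over all tested genes the 2 mLN arrays correlated with r = 0.988 and the 2 pLN arrays with r = 0.99, and pairs across nodes with 0.966 to 0.973. Ptprc, which encodes CD45, read 597 and 647 in mLN, against 696 and 496 in pLN, well above background on every array. Ccl19, a chemokine of the reticular stroma, read 259315 and 482982 in mLN, against 265473 and 387999 in pLN.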

How the data were processed

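Per the labels' protocols, each sample gave 80 ng of total RNA for 1 round of amplification and labelling with one dye. The scanner software was Agilent Feature Extraction 9.5.3.1. The deposited intensity values are background-subtracted, per the file headers. The deposited files also hold other columns, 0 or 1 flags that mark spots well above background, saturated spots and outliers. All 4 arrays lay on 1 slide and were scanned once. A deposited value table of linear intensity values equals the processed signals times 1 factor per array (0.862 and 0.867 for mLN, 0.865 and 0.890 for pLN), with a floor of 15, and had medians of 172 and 161 for mLN, and of 169 and 167 for pLN. It served as an alternative.

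Control and outlier spots were dropped, the spots of a probe averaged, and log2 values scaled to each array's 75th percentile. A probe counted as well above background on an array where most of its kept spots carried that flag. Of 41174 probes, 24375 were named by accession, 6301 by symbol and 2426 by synonym from RefSeq genes on GRCm38.p6, and 8072 kept the name in the files. Probes had to be well above background on the 2 arrays of one node or the other (31883 probes), and a gene was read from its entering probe with the highest mean. Differences were fitted with limma 3.58.1 in R 4.3.3 (lmFit and eBayes) on 2 mLN against 2 pLN arrays, with Benjamini-Hochberg adjustment over 21392 genes. The precision is limited by the number of arrays. An exact permutation test of 2 against 2 cannot go below p = 0.333. A fold against a node with neither array well above background is a nominal bound. On simulated data the fit called 0.2% of genes changed by 1, 51.2% of genes changed by 2 and 89.6% of genes changed by 6 on the log2 scale, and 0.017% of unchanged genes. The simulated errors were normal and independent, with the measured spreads shuffled across genes. Any link between signal and spread, and any deviation shared within an experiment, was thereby removed. These rates thus do not describe genes with a node at background.

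Experiment numbers are shared by an mLN and a pLN sample. Deviations between experiments correlated across genes with r = 0.246 between the nodes, and the experiment was also fitted as a block. The factors, the lists and the tests were chosen with earlier results of these data known. Genes named from the other lists were those called, up to 4 in each direction by smallest adjusted p, and paralogues or partners of a factor. Clic5, Efemp1, Gpm6a, Krt20, Tnfsf11, Tbx18, Tbx5, Emx2, Hand2, Nkx3-2, Madcam1, Amhr2, Podxl, Gas1, Gli1, Ptch1, Ptprc and Ccl19 were added after their values were seen. So were the counts of the marker lists under the alternatives and the raising of dim signals in the medians per experiment.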

Additional observations from a re-analysis of the deposited data

How the results depend on the processing

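The log2 differences of Nkx2-3, Tcf21, Isl1, Wt1, Bnc1 and Foxf2 were positive under every alternative run, and those of Gata4, Gata6 and Hlx were not. Gata4 gave -0.06 without mLN 2 and -0.10 without pLN 2, with 0.18 as the highest value when an array was left out. Gata6 gave -0.10 with normexp, and Hlx gave -0.093 without pLN 1 and 0.34 without pLN 2. With normexp, Nkx2-3 fell to 4.80, Tcf21 to 4.99, Isl1 to 3.50, Wt1 to 4.22 and Bnc1 to 4.15, none called, and Gata4 gave 1.09. Calls over all genes numbered 224 in the fit described, 354 with median scaling, 44 without a filter on dim probes and 0 with normexp, where 566 had an unadjusted p under 0.05 in limma. Leaving out an array gave 0 to 185 calls over all genes, the lone array of that node being assumed to vary like the other node. It gave 0 without pLN 1 (1877 at an unadjusted p under 0.05) and without pLN 2 (2297). The factors then had 0 to 5 calls, other gut and spleen factors 0 to 2, other coelomic factors 0 to 1, paralogues 0 to 1 and reported targets 0 to 2, the second of those being Amhr2 without mLN 2. With normexp each of these lists had 0 calls in limma, with 5, 1, 0, 0 and 2 members at an unadjusted p under 0.05. Restricting to probes well above background on all 4 arrays left 2 calls among the factors (Nkx2-3 and Tcf21), 1 among gut and spleen factors, and 0 among coelomic factors and paralogues. Isl1, Wt1, Bnc1, Gata5 and Hand1 are not tested there. Without a filter, gut and spleen factors had 1 call and coelomic factors 0, and Tcf21 lost its call among the factors. Coelomic factors had 2 calls with median scaling, quantile normalization, the mean of probes and the deposited value table, Emx2, lower in mLN, being the second. With normexp the log2 difference of Emx2 was positive, at 1.12. With the experiment as a replicate block, 333 genes and 6 of the factors were called, Foxf2 being the sixth, and the block changed no other call in the 5 lists of factors, paralogues, targets and hedgehog genes. Among the marker lists it changed the mesothelial calls to 7 (Rspo1 lost), the acinar calls to 7 and added Krt20 and Tnfsf11. Hedgehog genes had 0 calls under every setting. The cause of these changes was not tested. With 2 arrays per node, small differences such as those of Gata6 and Hlx could not be resolved, and signals at background in pLN set no upper limit on the folds of Isl1, Wt1 and Bnc1.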
